A study of Mus musculus with 10 samples.

Results

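Markers of the main neuron types of the hippocampus were examined in mice given a circular RNA of the tau gene. The 32 genes were taken by symbol from the deposited table, out of 21956 genes in all. They fall into 11 markers of dentate granule cells, 8 of CA1 pyramidal cells and 13 of CA2 and CA3 pyramidal cells. None was chosen from its measured values, although the lists were drawn up with results of the same data already known. Bulk RNA from hippocampal tissue was sequenced from 5 libraries labelled control and 5 labelled AAV-circTau6. Every mouse had the hMapt genotype, which by its name carries the human tau gene, and was sampled at 6 months of age. The circTau6 mice had received an adeno-associated virus, a gene delivery vector, carrying circTau6, and were sampled 80 days after that injection. The control mice were injected too, but neither the content of their injection nor the promoter of the virus is given in the labels. By the series title, the study asks whether circTau6 brings about tau pathology and loss of neurons, and the markers bear on how much RNA of each neuron type the tissue held.

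The hippocampal formation passes signals along a chain of neuron types. Granule cells of the dentate gyrus receive cortical input and send mossy fibres to CA3 pyramidal cells, whose axons in turn reach CA1, the main output field. CA2 is a small field between CA3 and CA1, with neurons that resist the usual forms of synaptic strengthening and take part in social memory. CA1 neurons and the entorhinal cells that feed the dentate gyrus are among the neurons most affected by tau pathology in Alzheimer's disease. Each field has transcripts that its neurons hold at a much higher level than the other fields do, and these serve as its markers. Markers can also be present in other cells or regions, and bulk tissue RNA does not show which cells a transcript came from. Restriction of the listed genes to their fields was therefore not tested here. In tissue RNA a lower marker level can come from fewer cells of that type or from less RNA per cell, and the measurement cannot tell these apart.

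RefSeq promoter windows of 300 bases, running from 250 bases before the transcription start to 50 after it, were matched by symbol for 26 of the 32 markers on build GRCm38.p6. Gsg1l, Pou3f1, Lefty1, Socs2, St18 and Rgs14 had no entry, and the first entry was used for 6 markers with more than 1. The 5 printed here show the best known granule cell marker (Prox1), a secreted granule cell protein (C1ql2) and the markers with the lowest p-value among CA1 genes (Wfs1) and among CA2 and CA3 genes (Amigo2), together with the marker with the largest fold change (Coch). Capitals mark matches on either strand, none of which overlaps another here, to TATAAA, the GC box GGGCGG, the pentamer CCAAT and the E-box CAGATG, which is a form of the sequence bound by neuronal basic helix-loop-helix factors. Each is written 5′ to 3′ on the strand of its gene. The window of Prox1 is chr1:190170778-190171077 on the minus strand and that of C1ql2 is chr1:120340332-120340631 on the plus strand. The window of Wfs1 is chr5:36988933-36989232 on the minus strand, that of Coch is chr12:51593091-51593390 on the plus strand, and that of Amigo2 is chr15:97247238-97247537 on the minus strand.
Prox1: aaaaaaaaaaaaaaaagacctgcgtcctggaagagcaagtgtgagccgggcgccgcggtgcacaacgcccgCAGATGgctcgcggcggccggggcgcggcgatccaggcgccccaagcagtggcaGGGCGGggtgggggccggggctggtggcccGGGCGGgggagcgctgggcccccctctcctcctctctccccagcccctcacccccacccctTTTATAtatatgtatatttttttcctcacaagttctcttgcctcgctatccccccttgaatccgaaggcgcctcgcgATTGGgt
C1ql2: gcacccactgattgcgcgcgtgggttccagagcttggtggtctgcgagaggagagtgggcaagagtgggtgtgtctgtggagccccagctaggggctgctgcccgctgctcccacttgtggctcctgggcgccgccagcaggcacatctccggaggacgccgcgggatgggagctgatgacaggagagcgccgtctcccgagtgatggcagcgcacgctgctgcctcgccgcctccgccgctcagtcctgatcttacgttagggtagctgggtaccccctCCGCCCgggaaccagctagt
Wfs1: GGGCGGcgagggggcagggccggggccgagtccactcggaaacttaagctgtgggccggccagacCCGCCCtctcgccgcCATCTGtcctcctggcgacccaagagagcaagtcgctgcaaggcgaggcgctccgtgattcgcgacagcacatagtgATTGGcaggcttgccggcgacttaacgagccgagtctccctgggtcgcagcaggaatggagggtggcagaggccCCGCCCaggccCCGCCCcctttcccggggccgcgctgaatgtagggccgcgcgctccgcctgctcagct
Coch: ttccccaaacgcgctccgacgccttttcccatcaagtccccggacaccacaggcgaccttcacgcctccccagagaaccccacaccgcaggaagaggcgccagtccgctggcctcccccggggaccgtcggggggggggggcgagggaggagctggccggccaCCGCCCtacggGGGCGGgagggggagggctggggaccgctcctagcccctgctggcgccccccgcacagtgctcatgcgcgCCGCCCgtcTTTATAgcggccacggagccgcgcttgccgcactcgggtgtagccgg
Amigo2: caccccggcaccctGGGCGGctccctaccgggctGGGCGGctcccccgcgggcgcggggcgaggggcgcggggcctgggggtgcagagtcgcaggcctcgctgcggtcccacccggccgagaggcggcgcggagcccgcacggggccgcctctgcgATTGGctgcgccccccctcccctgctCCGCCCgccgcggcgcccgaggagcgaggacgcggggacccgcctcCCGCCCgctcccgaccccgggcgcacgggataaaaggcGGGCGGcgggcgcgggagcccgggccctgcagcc

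The GC box was present in 19 of the 26 matched marker promoters (73.1%), compared with 35.9% of 27025 RefSeq mouse promoters and 46.3% of the 17491 of protein-coding genes. The matched windows had a median GC content of 68.5%, against 56.3% in those of protein-coding genes, so the share with this GC-rich motif stands beside a higher base composition. TATAAA was found in 4 of 26 (15.4%), namely Coch, Iyd, Prox1 and Tdo2, and in 13.3% of protein-coding promoters. CCAAT was found in 11 of 26 (42.3%) against 39.0%, and CAGATG in 5 of 26 (19.2%) against 14.8%. These are matches of letters only. Among the 5 printed windows, Prox1 held all 4 motifs, while C1ql2 held the GC box alone.

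Total counts per library were 14762952 to 17647138, and all 32 markers passed the filter on low counts, the lowest marker count in any library being 34. Of 14396 genes tested with edgeR's quasi-likelihood test, 0 passed at an adjusted p under 0.05 in either direction. Control replicate 2 and circTau6 replicate 5 were almost without choroid plexus RNA, with 650 and 411 counts of Ttr, the transthyretin gene, against 28538 to 86422 in the others. CircTau6 replicate 3 also stood apart, since its deviations from the gene means correlated with GC content across 14371 genes (Pearson r = 0.28, against −0.07 to −0.01 in the other libraries). Mouse Mapt had 387 to 530 counts per library. The labels do not state that each library is a separate animal, so the p-values measure the spread between these libraries.

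Markers of all 3 fields were detected in every library, and they spanned a wide range of levels. On the TPM scale, which corrects for transcript length, the mean over the 10 libraries was highest for Pcp4, a small regulator of calmodulin, at 247 TPM (range 205 to 280.5). Mpped1, a metallophosphoesterase gene of CA1, followed at 151 TPM (134 to 158), and the ranges of these genes did not overlap. Cpne4, a calcium-binding copine of CA3, had 96.0 TPM, C1ql3 had 85.8 TPM and Wfs1 had 81.9 TPM, with ranges that overlapped each other. The lowest levels belonged to Iyd, the iodotyrosine deiodinase gene, at 4.57 TPM and Tdo2, a tryptophan-degrading dioxygenase gene of granule cells, at 5.74 TPM. The TPM summed over the dentate list averaged 346 in the controls and 344 with circTau6 (SD 19.98 and 21.2, n = 5 each). Over the CA1 list the sums averaged 448 and 453 (SD 8.71 and 16.4), and over the CA2 and CA3 list 649 and 648 (SD 22.6 and 25.01). In each field the summed levels of both groups overlapped, and the means differed by less than the SD of either group. The sums weigh the most abundant genes most. Pcp4 alone averaged 240 TPM in the controls and 254 with circTau6, Mpped1 150 and 152, and Wfs1 76.2 and 87.6. Near-equal sums therefore do not show equal levels of each marker. In the edgeR test, 7 of 8 CA1 estimates and 10 of 13 for CA2 and CA3 were below 0.

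**Figure D1:**
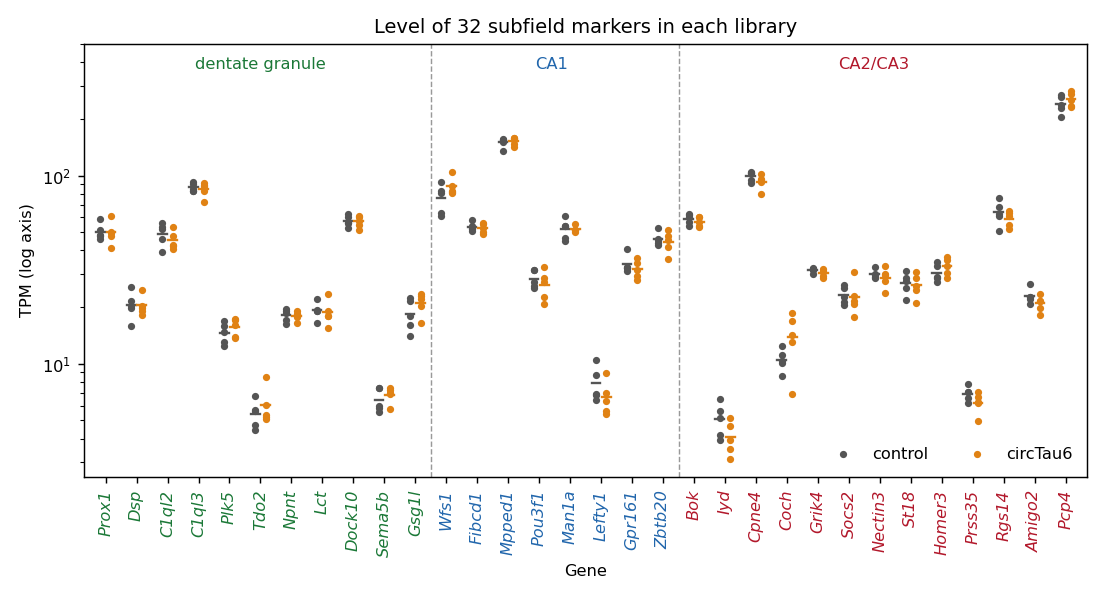
Level of each marker in TPM (log axis) in every library, grouped by field, with control and circTau6 libraries as separate points and short lines at the group means. Pcp4 lies highest and Iyd lowest, and the points of both groups overlap for every marker.

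No marker passed the test between circTau6 and control libraries. Of the 32 markers, 0 had an adjusted p under 0.05, where the share over all genes tested was 0.0%. At an unadjusted p under 0.05 there were likewise 0 of 32, against 4.42% of all genes tested with edgeR. That count was 1 without both libraries poor in choroid plexus RNA (Wfs1) and 0 to 4 with single libraries left out. It was 4 without circTau6 replicate 1 (Gsg1l, Lefty1, Cpne4 and St18), 2 without circTau6 replicate 4 (Socs2 and Amigo2), and 1 without control replicate 2 (Wfs1), control replicate 4 (C1ql2), control replicate 5 (Rgs14) or circTau6 replicate 2 (Coch). None of these passed adjustment. Over all genes tested, an unadjusted p under 0.05 by edgeR was reached by 778 of 14451 without both libraries poor in choroid plexus RNA. Without control replicate 2 it was reached by 548 of 14510. For the other single libraries left out, no share over all genes is set beside these counts, so whether they stand out is not shown. DESeq2 and limma voom also gave 0 of 32 at either threshold, against 4.08% and 5.16% of all genes at the unadjusted one. The lowest adjusted p was 0.981, shared by 21 markers. Levels are given below in CPM, counts scaled to library size with TMM factors, and differences as log2 fold changes of circTau6 over control with their standard errors.

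The estimated differences were small and mostly below 0. Log2 fold changes ran from −0.33 for Iyd to 0.38 for Coch, with a median of −0.05, beside a median of −0.00024 over all genes tested. Of the 32, 24 (75.0%) were below 0, compared with 50.1% of all genes tested. The 8 above 0 were Plk5, Tdo2, Sema5b and Gsg1l of the dentate list, Wfs1 of the CA1 list, and Coch, Homer3 and Pcp4 of the CA2 and CA3 list. The count below 0 was 19 of 32 without control replicate 3 and 21 of 32 without circTau6 replicate 3. The 32 markers were read in the same 10 libraries and are not independent of each other.

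Every marker had overlapping groups. For 0 of 32 did all circTau6 libraries lie above all controls, and for 0 of 32 below, where 0.472% and 0.368% of all genes tested were so separated. The 95% intervals bound how large a difference these libraries allow. For 20 of the 32 markers the whole interval lay within 1.25-fold in either direction, a limit set after the values were seen. The other 12 were C1ql2, Tdo2, Gsg1l, Wfs1, Pou3f1, Lefty1, Iyd, Coch, St18, Prss35, Rgs14 and Amigo2. The widest interval was that of Coch, from 0.935-fold to 1.82-fold, and the narrowest was that of Mpped1, from 0.928-fold to 1.07-fold.

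**Figure D2:**
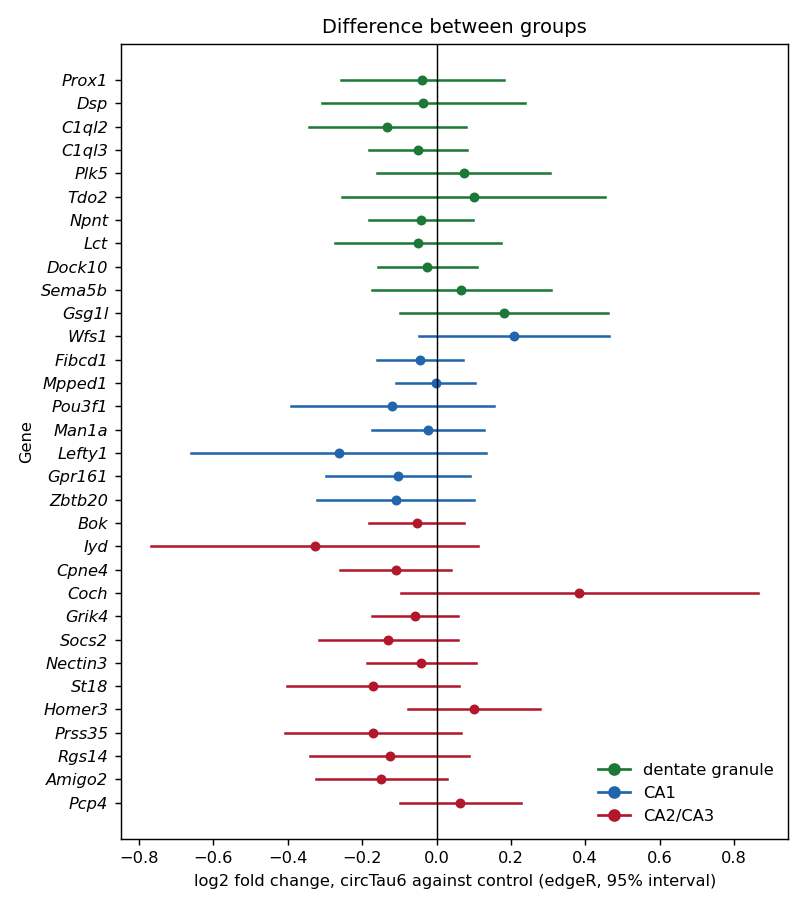
Log2 fold change of circTau6 over control libraries for each marker from edgeR, with bars for the 95% interval, grouped by field. All 32 intervals cross 0, and 24 of the 32 points lie below it.

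Dentate granule cell markers showed no shared direction. Of the 11, 7 had log2 fold changes below 0 and 4 above, with a median of −0.04 and a range of −0.13 to 0.18. Prox1 (ENSMUSG00000010175, GRCm38 chr1:190118035-190170714, minus strand) encodes the homeobox factor that sets and keeps granule cell identity. Its levels were chosen for full display after they were seen. They were 147, 158, 188, 149 and 143 CPM in control replicates 1 to 5 and 186, 156, 127, 144 and 152 CPM in circTau6 replicates 1 to 5. The highest and the next highest library were thus control replicate 3 and circTau6 replicate 1, with the groups interleaved, and circTau6 replicate 3 was the lowest. The log2 fold change was −0.04 ± 0.10 (SE), with a 95% interval of −0.26 to 0.18.

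C1ql2 and C1ql3 encode secreted C1q-like proteins that organise the synapses between mossy fibres and CA3 neurons. C1ql2 (ENSMUSG00000036907) had 41.7, 42.8, 45.9, 32.1 and 36.9 CPM in control and 42.7, 38.8, 32.9, 33.7 and 33.9 CPM in circTau6 libraries. The lowest and the highest library were both controls, and the log2 fold change was −0.13 ± 0.10 (SE), with a 95% interval of −0.34 to 0.08. C1ql3 had 85.1, 84.9, 93.8, 87.9 and 94.8 CPM in control and 90.2, 93.6, 73.9, 89.4 and 84.1 CPM in circTau6 libraries. CircTau6 replicate 3 was well below the rest, the others lay between 84.1 and 94.8 CPM, and the log2 fold change was −0.05 ± 0.06 (SE). Promoter windows of both genes held a GC box.

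Gsg1l, an auxiliary subunit of AMPA-type glutamate receptors, had the lowest p of the dentate list and ran the other way. Its levels were 28.3, 34.0, 22.6, 25.7 and 35.3 CPM in control and 26.0, 32.1, 35.0, 35.9 and 36.5 CPM in circTau6 libraries. Of the circTau6 libraries, 2 exceeded every control, and control replicate 3 was the lowest library. Gsg1l thus had a log2 fold change of 0.18 ± 0.13 (SE), with a 95% interval of −0.10 to 0.46. The deviations of neocortical markers from their gene means, on the log2 scale, were −0.04, 0.15, −0.20, 0.08 and 0.09 in control and −0.27, −0.02, −0.08, −0.03 and 0.32 in circTau6 libraries. Control replicate 3 and circTau6 replicate 1 were low for both these markers and Gsg1l. Control replicates 2 and 5 and circTau6 replicate 5 were high for both, with circTau6 replicate 5 the highest library for each. Control replicate 4 was low for Gsg1l alone, and circTau6 replicates 3 and 4 were high for Gsg1l alone. The part of cortical tissue in the Gsg1l values was not tested.

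Dock10 was among the granule cell markers with a higher level, with 57.2 TPM. It had 142, 130.3, 152, 134 and 122 CPM in control and 145, 142, 122, 127 and 132 CPM in circTau6 libraries. The groups covered nearly the same range, and the log2 fold change was −0.02 ± 0.06 (SE), with a 95% interval of −0.16 to 0.11.

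The other dentate markers had similarly small differences. Dsp, which encodes the desmosomal protein desmoplakin, averaged 75.3 CPM in the controls and 73.5 CPM with circTau6 (SD 13.5 and 9.02, n = 5 each). Lct, the lactase gene and a marker of dorsal granule cells, had a log2 fold change of −0.05 ± 0.10 (SE), and Npnt, which encodes the matrix protein nephronectin, had −0.04 ± 0.07 (SE). The estimates above 0 were 0.07 ± 0.11 (SE) for Plk5 of the polo-like kinase family, 0.07 ± 0.11 (SE) for the axon guidance gene Sema5b and 0.10 ± 0.17 (SE) for Tdo2. None of these exceeded the spread between libraries.

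CA1 markers had estimates below 0 for 7 of 8 genes, with a median log2 fold change of −0.07, but the gene with the lowest p lay above 0. Wfs1 (GRCm38 chr5:36966104-36989205, minus strand) encodes wolframin, a membrane protein of the endoplasmic reticulum, and marks CA1 pyramidal cells. Its levels were 124, 134, 94.6, 95.01 and 127 CPM in control and 123, 133, 159.7, 124 and 123 CPM in circTau6 libraries. Control replicates 3 and 4 were low, circTau6 replicate 3 was high, and the other 7 libraries lay between 123 and 134 CPM. The difference on the log2 scale was 0.21 ± 0.12 (SE), with a 95% interval of −0.05 to 0.46. Without circTau6 replicate 3 it was 0.13.

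Lefty1, a secreted antagonist of Nodal in the TGF-β family, had the lowest level of the CA1 list in counts. It had 4.53, 4.45, 6.95, 5.76 and 4.21 CPM in control and 5.84, 4.57, 3.50, 3.59 and 4.08 CPM in circTau6 libraries. Of the circTau6 libraries, 3 were below every control, the other 2 were inside the control range, and the log2 fold change was −0.26 ± 0.19 (SE), with a 95% interval of −0.66 to 0.13. Gpr161, an orphan receptor of the primary cilium that restrains Hedgehog signalling, had 86.4, 88.9, 91.7, 114 and 89.8 CPM in control and 94.9, 101, 80.5, 76.1 and 86.0 CPM in circTau6 libraries. Control replicate 4 stood above the rest, and 3 circTau6 libraries lay below every control. For Gpr161 it was −0.10 ± 0.09 (SE), with a 95% interval of −0.30 to 0.09, and −0.0226 without control replicate 4.

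Mpped1 was the CA1 marker with the highest TPM and the steadiest level. It had 203, 202, 175, 192 and 198 CPM in control and 179.7, 198, 203, 189 and 200.4 CPM in circTau6 libraries. Both groups averaged 194 CPM, and the low libraries, control replicate 3 and circTau6 replicate 1, came from different groups. Its log2 fold change was −0.0025 ± 0.05 (SE), with a 95% interval of −0.11 to 0.10.

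Among the remaining CA1 markers, Zbtb20 encodes a zinc finger repressor needed for CA1 identity and is also present in granule cells and astrocytes. It had 441, 439, 519, 479 and 428 CPM in control and 496, 482, 342, 404 and 413 CPM in circTau6 libraries, values chosen for display after they were seen. CircTau6 replicate 3 was far below the other libraries. Zbtb20 had a log2 fold change of −0.11 ± 0.10 (SE), and −0.04 without circTau6 replicate 3. Pou3f1, a POU-domain transcription factor, had −0.12 ± 0.12 (SE), Fibcd1, a receptor for acetylated ligands, −0.04 ± 0.05 (SE), and Man1a, a mannosidase of the Golgi, −0.02 ± 0.07 (SE).

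CA2 and CA3 markers had estimates below 0 for 10 of 13 genes, with a median log2 fold change of −0.11 and a range of −0.33 to 0.38. Amigo2, a cell adhesion gene used as a marker of CA2, had 25.5, 24.2, 26.8, 26.6 and 30.4 CPM in control and 24.9, 25.4, 22.8, 26.6 and 20.6 CPM in circTau6 libraries. Control replicate 5 was the highest and circTau6 replicate 5 the lowest, while the other 8 libraries lay within 22.8 to 26.8 CPM in a mixed order. Amigo2 had a log2 fold change of −0.15 ± 0.08 (SE), with a 95% interval of −0.32 to 0.03. Its unadjusted p was the lowest of all 32 markers.

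Coch, which encodes the extracellular matrix protein cochlin, had the largest estimate and the largest spread of the markers. It had 10.2, 8.55, 10.2, 11.1 and 12.5 CPM in control and 14.1, 6.85, 16.7, 18.2 and 12.7 CPM in circTau6 libraries. Of the circTau6 libraries, 4 exceeded every control, while circTau6 replicate 2 was the lowest of all 10. Coch thus had a log2 fold change of 0.38 ± 0.22 (SE), with a 95% interval of −0.10 to 0.86. Without circTau6 replicate 2 it was 0.55 ± 0.13 (SE), at an adjusted p of 0.924 by edgeR. The deviations of meningeal fibroblast markers from their gene means, on the log2 scale, were 0.37, −0.36, −0.07, −0.30 and −0.01 in control and 0.19, −0.84, 0.96, 0.64 and −0.56 in circTau6 libraries. They were lowest in circTau6 replicate 2 and highest in circTau6 replicates 3 and 4, as Coch was, but circTau6 replicate 5 was low for them with Coch above every control, and control replicate 1 was high for them with Coch at 10.2 CPM. The part of these cells in the Coch values was not tested.

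Iyd, a CA3 marker in the mouse, had the lowest level of all 32. It had 2.65, 2.49, 3.33, 3.62 and 4.14 CPM in control and 3.29, 1.99, 2.24, 2.47 and 2.92 CPM in circTau6 libraries. Of the circTau6 libraries, 3 lay below every control, and the log2 fold change was −0.33 ± 0.21 (SE), with a 95% interval of −0.77 to 0.11.

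Pcp4 and Cpne4 were the most abundant of the list by TPM. Pcp4 had 59.4, 53.0, 62.3, 68.7 and 68.9 CPM in control and 60.5, 65.4, 70.1, 71.5 and 58.8 CPM in circTau6 libraries. The log2 fold change of Pcp4 was 0.06 ± 0.08 (SE), and 2 circTau6 libraries exceeded every control. Cpne4 had 113, 119.6, 129, 119 and 107 CPM in control and 122, 114, 91.4, 108 and 108 CPM in circTau6 libraries. CircTau6 replicate 3 was the only library of Cpne4 below the control range, and the log2 fold change was −0.11 ± 0.07 (SE), with a 95% interval of −0.26 to 0.04.

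**Figure D3:**
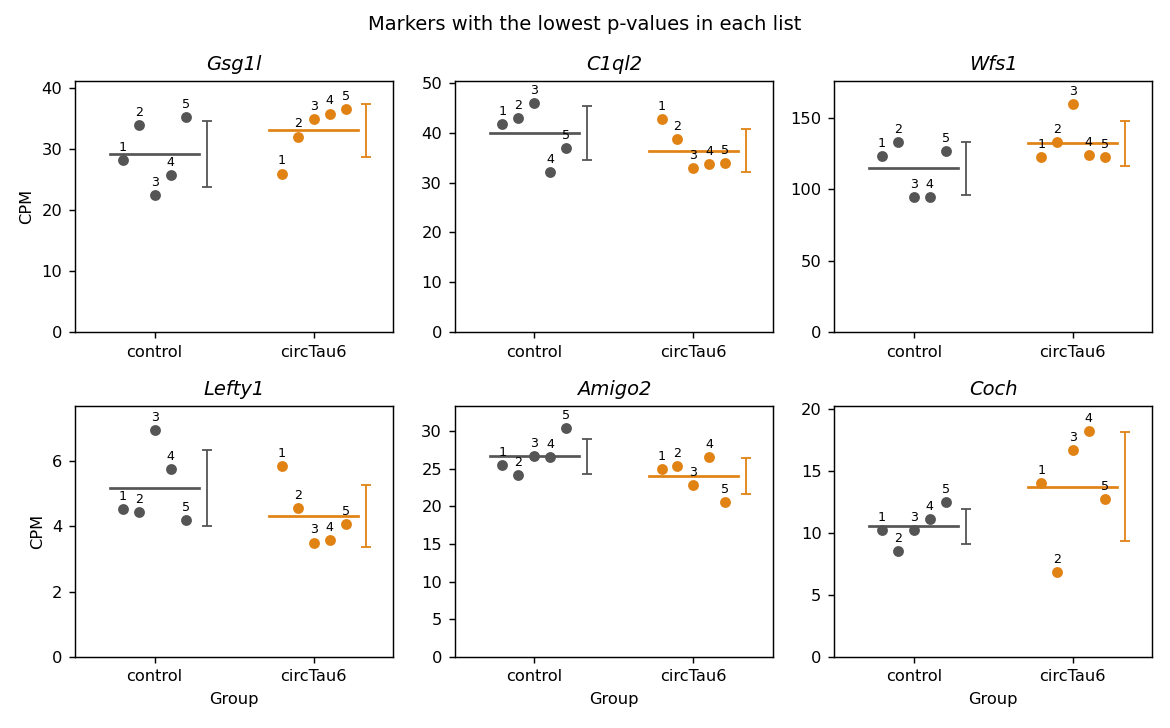
CPM of the markers with the lowest p-values of each field (Gsg1l and C1ql2 of the dentate list, Wfs1 and Lefty1 of CA1, Amigo2 and Coch of CA2/CA3) in every library, with the replicate number beside each point, lines at group means and bars for the SD (n = 5). The groups overlap in every panel, and circTau6 replicate 2 is the lowest library for Coch.

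St18 and Socs2 were the markers with most circTau6 libraries below the controls. St18, a zinc finger transcription factor, had 46.6, 50.6, 49.3, 47.5 and 46.9 CPM in control and 54.2, 43.6, 31.5, 42.0 and 42.6 CPM in circTau6 libraries, shown after they were seen. Of the circTau6 libraries, 4 lay below every control and circTau6 replicate 1 lay above every control. The log2 fold change was −0.17 ± 0.11 (SE), with a 95% interval of −0.40 to 0.06. Socs2, a suppressor of cytokine and growth hormone signalling, showed the same split, with circTau6 replicate 4 above every control and the other 4 below, and had −0.13 ± 0.09 (SE), with a 95% interval of −0.32 to 0.06.

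These differences depended on the deposited unit for both genes. On TPM, the log2 fold change was −0.04 for St18 and −0.05 for Socs2. The TPM recorded per CPM should be nearly constant for a gene, and its highest value was a median of 1.04 times its lowest over the 32 markers. For St18 it ranged from 0.468 to 0.817, a ratio of 1.75, with the highest value in circTau6 replicate 3. The corresponding ratio was 1.38 for Socs2 and 1.34 for Tdo2.

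The remaining CA2 and CA3 markers ranged from −0.17 to 0.10. Rgs14, a G protein regulator that limits synaptic plasticity in CA2, averaged 60.6 CPM in the controls and 55.6 CPM with circTau6 (SD 9.22 and 5.30, n = 5 each), or −0.13 ± 0.10 (SE) on the log2 scale. Prss35, which encodes a protease-like protein, had −0.17 ± 0.11 (SE), and Grik4, a kainate receptor subunit at mossy fibre synapses, had −0.06 ± 0.05 (SE). Bok of the BCL2 family had −0.05 ± 0.06 (SE) and the adhesion gene Nectin3 −0.04 ± 0.07 (SE). Homer3, a scaffold of the postsynaptic density, was above 0 at 0.10 ± 0.08 (SE).

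Averaged over its list, no field separated the groups. The deviation of a list in a library is the mean over its genes of the log2 CPM minus the mean of that gene over the 10 libraries. For the dentate list it was −0.01, 0.06, 0.17, −0.09 and −0.15 in control replicates 1 to 5 and 0.10, 0.01, −0.07, −0.01 and −0.00 in circTau6 replicates 1 to 5. Both the highest and the lowest library were therefore controls. Control replicate 3 had the highest level of 7 of the 11 dentate markers, and control replicate 5 the lowest level of 6 of them.

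For the CA1 list the deviations were −0.01, −0.01, 0.10, 0.11 and −0.06 in control and 0.08, 0.09, −0.10, −0.15 and −0.05 in circTau6 libraries. For the CA2 and CA3 list they were −0.02, −0.00, 0.07, 0.05 and 0.08 in control and 0.09, −0.08, −0.08, 0.01 and −0.11 in circTau6 libraries. For the CA1 list, circTau6 replicates 3 and 4 lay below every control, and the other circTau6 libraries lay within the control range. For the CA2 and CA3 list, circTau6 replicates 2, 3 and 5 lay below every control. There circTau6 replicate 4 lay within the control range, and circTau6 replicate 1 was the highest library. The CA1 deviations averaged 0.03 and −0.03 in the control and circTau6 groups (SD 0.07 and 0.11, n = 5 each). Those of CA2 and CA3 also averaged 0.03 and −0.03 (SD 0.04 and 0.09). Those of the dentate list averaged −0.005 and 0.005 (SD 0.13 and 0.06), so its mean was not lower with circTau6. Over all 32 markers, control replicates 1 to 5 were above the gene mean for 16, 19, 25, 20 and 13. CircTau6 replicates 1 to 5 were above it for 24, 20, 10, 11 and 9. The median within-group SD of the markers was 0.169 on the log2 scale, compared with 0.139 over all genes tested.

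**Figure D4:**
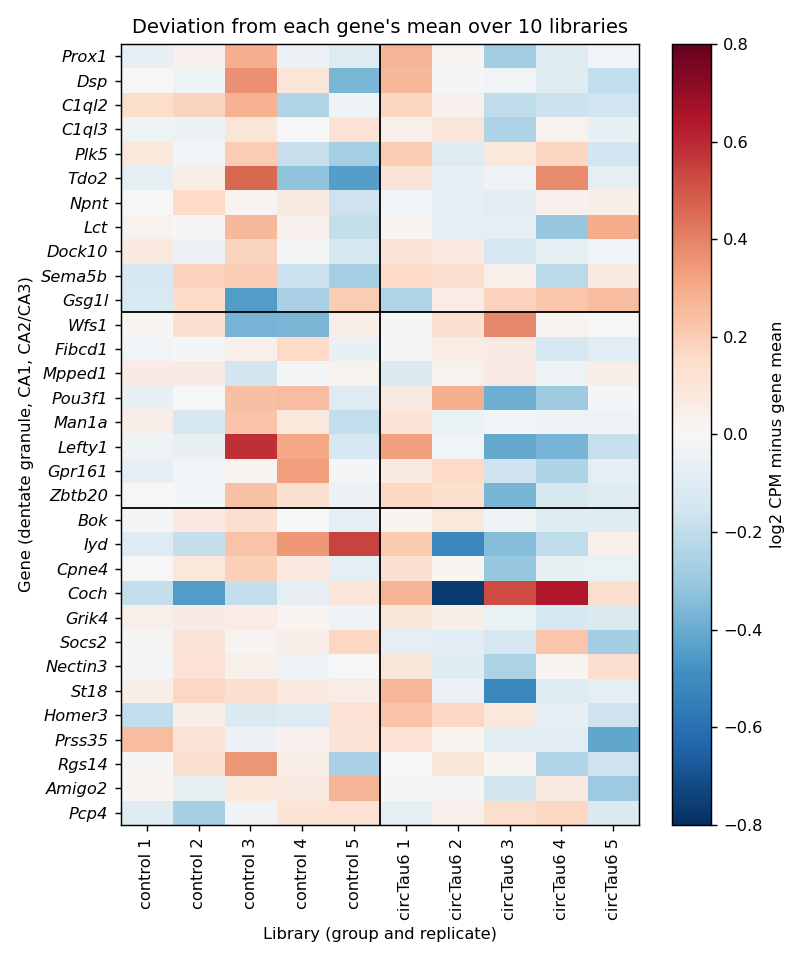
Deviation of each marker from its mean over the 10 libraries, as log2 CPM, with markers in rows by field and libraries in columns by group. Control replicate 3 is high for most dentate markers and control replicate 5 low, while circTau6 replicate 3 is low for markers of all 3 fields.

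Direction in the dentate list rested on single libraries. Without control replicate 3, 3 of the 11 dentate log2 fold changes were below 0 and their median was 0.04. Without circTau6 replicate 3, 5 were below 0 and the median was 0.00. Leaving out each library in turn moved the median between −0.11 and −0.02 for the CA1 list and between −0.13 and −0.05 for the CA2 and CA3 list.

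Tissue from beside the hippocampus also differed between libraries. Thalamic markers deviated by 0.71 in control replicate 4 and 0.68 in circTau6 replicate 3, and by −0.41 to 0.01 in the other libraries. Neocortical markers ranged from −0.27 in circTau6 replicate 1 to 0.32 in circTau6 replicate 5. Choroid plexus markers ranged from −3.67 in circTau6 replicate 5 to 1.35 in circTau6 replicate 3. Their part in the values of the subfield markers was not tested, and without both libraries poor in choroid plexus RNA, 24 of the 32 marker estimates were below 0, the count with all libraries.

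**Figure D5:**
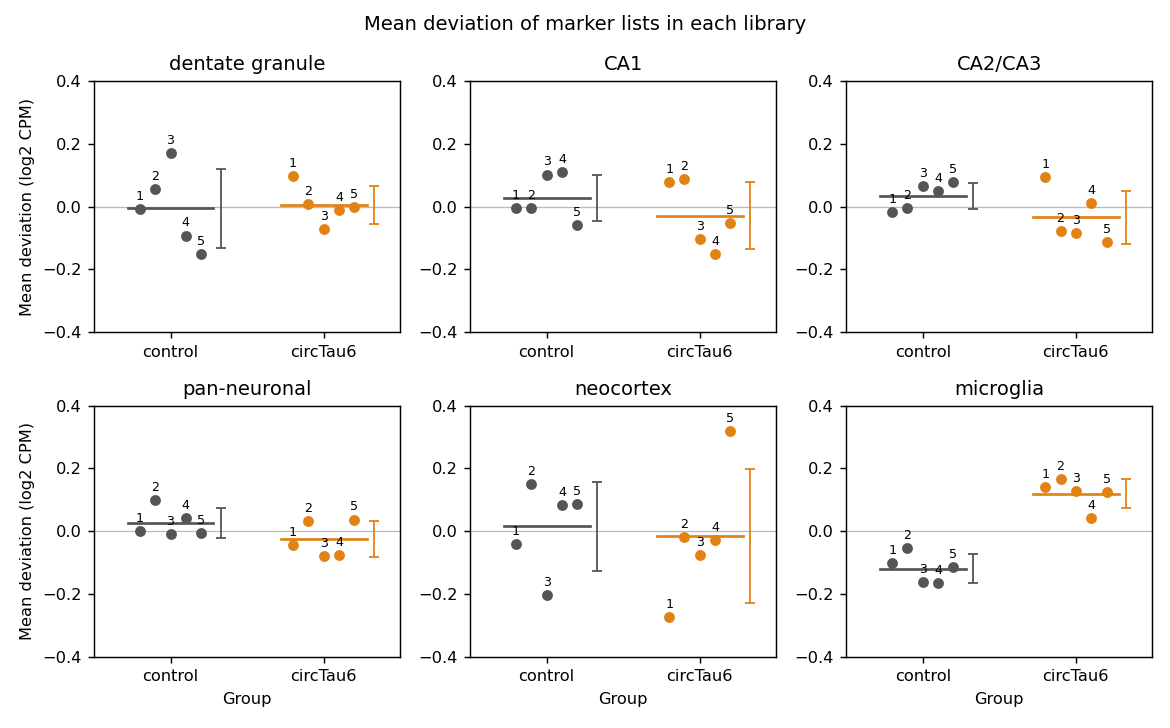
Mean deviation, in log2 CPM, of the dentate, CA1, CA2/CA3, pan-neuronal, neocortical and microglial lists in each library, with the replicate number beside each point, lines at group means and bars for the SD (n = 5). The control and circTau6 points of the 3 subfield lists overlap, and those of microglia do not. All lists were drawn up with earlier results of these data known.

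Additional markers of the same neurons were also examined. Of 7 other granule cell genes, 0 had an unadjusted p under 0.05, and Calb1, a calcium buffer that is lost from granule cells in several models of disease, averaged 149.6 CPM in the controls and 141 CPM with circTau6 (SD 10.6 and 9.61, n = 5 each). Of 5 genes shared by pyramidal cells, 3 had an unadjusted p under 0.05 and lower values after circTau6, where 1.85% of all genes tested did so, but none passed adjustment. Spink8, a protease inhibitor gene of CA1, averaged 10.4 CPM in the controls and 8.63 CPM with circTau6 (SD 0.997 and 0.763, n = 5 each; edgeR adjusted p = 0.981). The log2 fold change was −0.27 ± 0.10 (SE) for Spink8, −0.14 ± 0.06 (SE) for Ociad2 and −0.14 ± 0.06 (SE) for the neuronal transcription factor gene Neurod6.

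Of the 5 other CA2 genes tested, 3 had estimates above 0, with a median log2 fold change of 0.04. Of 5 mossy cell genes, these 5 CA2 genes, 5 CA3 genes and 4 subiculum genes, 0 had an unadjusted p under 0.05. Of the 4 ventral hippocampal genes 1 did, the neuropeptide gene Grp, at −0.32 ± 0.12 (SE; edgeR adjusted p = 0.981). The share over all genes tested was 4.42%. Of 7 striatal, 5 neocortical and 4 immature neuron genes, 1 each did so with lower values after circTau6, namely Pde10a, Fezf2 and Sox11. None of these passed adjustment. The 8 pan-neuronal genes all had estimates below 0, with a median of −0.05, the same as that of the 32 markers to the precision given, and 0 had an unadjusted p under 0.05.

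Markers of other cell types were measured in the same libraries. Of 8 microglial genes, 7 had higher values after circTau6 at an unadjusted p under 0.05, where 2.58% of all genes tested did so, and 0 passed adjustment. Complement gene C1qb averaged 28.2 CPM in the controls and 38.5 CPM with circTau6 (SD 2.90 and 4.44, n = 5 each; edgeR adjusted p = 0.288). The microglial list deviated by −0.17 to −0.05 in control and 0.04 to 0.17 in circTau6 libraries, without overlap, whereas each of the 3 neuronal lists overlapped. Like the other lists, the microglial list was drawn up with earlier results of these data known, so its separation is not independent of that choice. The difference between the microglial and the neuronal lists was not tested.

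The authors' deposited table gives a p under 0.05 for 3 of the 32 markers, at 0.0142 for Wfs1, 0.0193 for Coch and 0.0403 for Gsg1l, each with an FDR of 0.987. How many of all genes had a deposited p under 0.05 was not counted, so these 3 have no background share beside them. In the authors' deposited table the next lowest p of a marker was 0.137, for Homer3 at a log2 fold change of 0.11. Amigo2, further from 0 at −0.13, had a deposited p of 0.569. The sources used here do not name the test behind these p-values. In the edgeR test the same 3 genes each had an adjusted p of 0.981, with estimates above 0 as well.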

How the data were processed

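The members and all gene lists were chosen with earlier results of these data known. Per the labels' protocols, TRIzol RNA with integrity numbers above 8.0 was depleted of ribosomal RNA and sequenced as strand-specific 150 bp pairs. StringTie 1.3.1 and RSEM appear, without a role, in the submitters' processing notes. The sources used here do not give the aligner, build or annotation. Per the file headers, the deposited values are the authors' counts and TPM per library, and their own log2 fold change, p-value and FDR. The log2 fold change deposited is the log2 ratio of group means of TPM. A deposited TPM above 0 stands beside a count of 0 in 108 entries, so the counts may be estimates that were rounded. Coordinates are GRCm38, by gene ID from GENCODE M21, in which all 32 IDs matched.

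Groups follow the treatment label. Counts of 14396 genes left by filterByExpr were scaled with TMM and compared by the robust quasi-likelihood F test of edgeR 4.0.16 in R 4.3.3, with Benjamini-Hochberg adjustment over all genes and a threshold of 0.05. SE is the log2 fold change over the square root of F. The depth of 14762952 counts in the shallowest library puts 3 counts at 0.203 CPM, which covers counting error only. Log2 CPM used a prior count of 2. Alternatives were DESeq2 1.42.0, limma 3.58.1 (voom with quality weights, and log2(TPM + 0.1)), other scalings, no filter, a replicate block, no choroid-poor libraries, and each library left out. Scripts were tested on simulated data. All 32 markers are named; values in every library are given for the 3 lowest p and the 2 highest mean TPM of each list, and up to 3 genes by lowest p were eligible from each other list.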

Additional observations from a re-analysis of the deposited data

Results flagged for a closer look

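Of 70 groups of 5 libraries examined (the 32 markers and 3 lists in both groups), 3 had a library far from the other 4, and about 1 in 20 groups would be marked so by chance. Wfs1 was at 159.7 CPM in circTau6 replicate 3, against 123 to 133 CPM in the other circTau6 libraries. Man1a was at 113 CPM in circTau6 replicate 1, against 101 to 103 CPM in the others. Gpr161 was at 114 CPM in control replicate 4, against 86.4 to 91.7 CPM in the others. CircTau6 replicate 3 is also the library whose deviations correlated with GC content, and control replicate 4 is high in thalamic markers by 0.71 on the log2 scale. CircTau6 replicate 3 is high in thalamic markers too, by 0.68, with Gpr161 at 80.5 CPM. The part of either in these values was not tested.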

How the results depend on the processing

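No marker passed an adjusted p of 0.05 under any of the 18 alternatives, and the lowest adjusted p was 0.773. Over all genes, edgeR's count of 0 became 14 with DESeq2, 2 with total count scaling, 2 without the filter, 4 with a replicate block, 3 without both choroid-poor libraries, and 0 to 4 with single libraries left out (4 without circTau6 replicate 5, 1 without control replicate 1 or 3). Of 576 marker estimates, 558 kept their sign and 18, over 7 genes close to 0, did not: Mpped1 was 0.0205 with total count scaling and 0.0165 on TPM, and Man1a was 0.00011 with total count scaling. With single libraries left out, estimates ranged from −0.12 to 0.0369 for Prox1, −0.12 to 0.0639 for Dsp, −0.14 to 0.0147 for Lct, −0.0619 to 0.0211 for Dock10, −0.0343 to 0.0235 for Mpped1, −0.0719 to 0.0378 for Man1a and −0.0808 to 0.0111 for Nectin3. The cause was not tested. The count of markers below 0 was 22 with total count scaling, under which the median of all genes was 0.0229 in place of −0.00024, and 23 on TPM. Replicate numbers share no stated pairing, and same-numbered libraries deviated together with correlations of −0.08 to 0.14; the block left 24 markers below 0 and 0 called. Wfs1 was 0.29 without both choroid-poor libraries (edgeR adjusted p = 0.900).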
